A study of Mus musculus with 18 samples.

Results

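The genes described here make sterols and fatty acids and are switched on by SREBP transcription factors. Of 33 genes listed, 32 were measured under a single gene symbol, out of 19938 genes on the array, and Acat2 was not analysed here. They fall into a sterol branch of 19 genes, a group of 5 genes that regulate SREBP, and a fatty acid branch of 8 genes. The list was chosen with differences of these same arrays in view: fibroblasts and organoids with and without 4-hydroxytamoxifen (4-OHT), S33 fibroblasts with and without doxycycline (dox), and Apc Min/Min stem cells. Members were thus selected on those contrasts, which are described below with no test of the members. Tests of members are given only for comparisons of cell types and lines that the choice did not use as contrasts. Some of their arrays are also control arrays of those contrasts: the 2 untreated MEF arrays in the comparison with derivatives, and the Apc +/+ array in the comparison of RTCs with ESCs.

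Sterol-regulatory element binding proteins (SREBPs, the products of Srebf1 and Srebf2) are made as membrane proteins of the endoplasmic reticulum. When membrane sterol is low, the escort protein Scap carries them to the Golgi, where proteases free the part that enters the nucleus; when sterol is plentiful, Insig1 and Insig2 hold Scap back. Srebf2 acts mainly on sterol synthesis and Srebf1 mainly on fatty acid synthesis. The sterol branch runs from acetyl units through mevalonate (Hmgcs1, Mvk, Pmvk, Mvd), isoprenoids (Idi1, Fdps, Ggps1) and squalene (Fdft1, Sqle) to lanosterol (Lss) and on to cholesterol (Cyp51, Tm7sf2, Msmo1, Nsdhl, Hsd17b7, Ebp, Sc5d, Dhcr7), with Stard4 as a sterol carrier. The fatty acid branch supplies acetyl and malonyl units (Acly, Acaca), builds palmitate (Fasn), lengthens it (Elovl6) and adds double bonds (Scd1, Scd2, Fads1, Fads2).

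The series holds 18 mouse samples, each on 1 array. Reprogrammed colon tumour cells (RTCs, tumour cells returned to a pluripotent state by induced pluripotent stem cell methods) are 3 arrays, and 2 further arrays hold derived lines, #45 (of RTC 1) and #9 (of RTC 3). Embryonic stem cells (ESCs) were wild type (Apc +/+), heterozygous (Apc Min/+) or homozygous (Apc Min/Min) for Min, an allele that cuts short the Apc protein, which holds beta-catenin in check; each has 1 array. Small intestinal organoids made from #45 were measured without and with 4-OHT (1 uM, 2 days; 1 array each), and embryonic fibroblasts (MEFs) made from #45 without and with 4-OHT (2 ug/ml, 2 days; 2 arrays each). S33 ESCs and S33 MEFs were measured without and with dox, 1 array each. Among the study's stated subjects is switching on a mutant beta-catenin, in stem cells and in fibroblasts. What 4-OHT switches in #45, what S33 stands for, and the dose and time of dox are not given in the sources used here. No cells lacking the inducible element were treated with 4-OHT or dox among these arrays, so the agent and what it induces cannot be told apart. Culture media also differed by cell type, per the labels' protocols: stem cells and MEFs grew in serum, and organoids in serum-free medium with N2 and B27 supplements. All organoids and #45 MEFs descend from 1 RTC line, and the labels do not say if replicates were grown separately, so p-values measure the spread between these arrays, which may be technical.

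Promoter sequence was examined because SREBPs activate weakly alone and act beside NF-Y, which binds CCAAT boxes, and Sp1, which binds GC boxes. RefSeq windows of the GRCm38.p6 build were held for 25 of the 32 members. Within the 250 bases before the start, on either strand, CCAAT was found in 15 of 15 sterol genes, 4 of 5 regulators and 1 of 5 fatty acid genes, against 37.5% of 27025 genes; a gene with several starts counted if any window held the letters. GGGCGG was found in 20 of 25 members against 35.4% of genes, CACGTG in 5 of 25 against 6.86%, and the sterol regulatory element core TCACNCCAC in 1, Hmgcs1, against 1.22%. These are letter matches in short windows, not measured binding. The promoters below show the members the results turn on: a sterol gene with a sterol regulatory element core (Hmgcs1), the widest-ranging sterol gene (Idi1), the feedback regulator (Insig1), the only fatty acid gene with a CCAAT match (Fasn) and the regulator without one (Scap). Capitals mark CCAAT or its reverse complement ATTGG and, in Hmgcs1, TCACNCCAC. The 2 windows on chromosome 13, chr13:119690101-119690350 and chr13:8885356-8885605, and those at chr5:28071162-28071411 and chr9:110333038-110333287 are on the plus strand, and that of Fasn at chr11:120824548-120824797 is on the minus strand, all written 5′ to 3′ up to the transcript start.
Hmgcs1: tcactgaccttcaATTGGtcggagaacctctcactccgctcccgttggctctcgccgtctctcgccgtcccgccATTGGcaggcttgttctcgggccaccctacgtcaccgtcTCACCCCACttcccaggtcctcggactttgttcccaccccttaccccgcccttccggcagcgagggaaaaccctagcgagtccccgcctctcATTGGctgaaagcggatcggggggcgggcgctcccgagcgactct
Idi1: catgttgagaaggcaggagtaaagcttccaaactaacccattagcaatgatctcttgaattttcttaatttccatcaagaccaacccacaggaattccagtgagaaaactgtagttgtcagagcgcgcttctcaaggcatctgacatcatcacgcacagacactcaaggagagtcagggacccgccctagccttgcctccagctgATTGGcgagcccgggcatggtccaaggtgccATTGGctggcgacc
Insig1: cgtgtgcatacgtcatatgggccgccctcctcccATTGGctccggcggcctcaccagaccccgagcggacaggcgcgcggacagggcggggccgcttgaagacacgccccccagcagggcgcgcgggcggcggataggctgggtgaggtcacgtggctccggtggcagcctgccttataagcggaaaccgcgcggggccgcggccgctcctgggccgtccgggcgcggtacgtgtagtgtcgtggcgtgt
Fasn: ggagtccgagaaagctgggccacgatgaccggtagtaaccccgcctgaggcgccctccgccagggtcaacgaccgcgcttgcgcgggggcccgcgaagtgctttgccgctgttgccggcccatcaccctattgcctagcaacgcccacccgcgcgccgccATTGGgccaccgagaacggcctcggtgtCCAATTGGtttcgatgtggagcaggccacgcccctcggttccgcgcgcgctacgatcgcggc
Scap: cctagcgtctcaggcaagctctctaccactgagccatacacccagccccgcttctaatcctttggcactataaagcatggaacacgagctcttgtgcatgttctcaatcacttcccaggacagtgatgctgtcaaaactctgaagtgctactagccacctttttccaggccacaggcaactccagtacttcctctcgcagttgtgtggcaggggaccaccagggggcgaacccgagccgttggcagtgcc
Hmgcs1 held 3 CCAAT matches and 1 sterol regulatory element core, Idi1 held 2 CCAAT matches, at 45 and 14 bases before the start, and Insig1 held 1, at 216 bases before it. In Fasn, 2 of its 3 CCAAT matches overlap on opposite strands as a palindrome. No CCAAT was found in either of the 2 windows of Scap, nor in those of Acly, Acaca, Elovl6 and Fads2.

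All levels are log2 intensities after the 18 arrays were quantile normalized together; a level is comparable between arrays for the same gene, not between genes. Deposited array medians ran from 142 to 317. Identical values recurred in 19.2% of probe sets between the MEF arrays numbered (2) and in 17.3% between Apc Min/Min and Apc +/+ ESCs. Derivative #9 shared 11.7% with the untreated and 9.52% with the treated MEF array numbered (2), the first of which it is tested against below, and all other pairs shared at most 0.104%. Cell type labels matched their markers: the 13 fibroblast markers averaged 11.84 to 12.52 in the 6 MEF arrays and at most 10.67 elsewhere, the 10 pluripotency markers 12.41 to 12.74 in RTCs, derivatives and ESCs and at most 7.37 elsewhere, and the 14 intestinal markers 12.33 and 12.47 in organoids and at most 7.31 elsewhere. Fewer cells of a type and less RNA per cell cannot be told apart in such bulk samples. Apc itself was at 9.86 to 10.97 over the 18 arrays, which checks no genotype label.

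Across the 18 arrays most members were high or low together. MEFs with 4-OHT, pair 1, held the highest level of 21 of the 32 members, and organoids held that of 9. Lowest levels were in dox-treated S33 MEFs for 14 members and in Apc Min/Min ESCs for 12. The choice of members used contrasts of these arrays, which favours extremes in them and levels that move together. Such counts were not made over all genes. Idi1, the isomerase that makes the reactive isoprenoid unit, had the widest range, 8.64 to 12.67 with a median of 11.41, and Hsd17b7 ranged from 9.55 to 13.00. Ggps1, which makes the longer isoprenoid used to anchor proteins, had the narrowest range of the sterol branch, 9.66 to 10.61. Each sterol gene was set against the mean of the other sterol genes over the 18 arrays, which share cell type and treatment. Pearson's r was 0.85 at the median, 0.96 for Cyp51, 0.95 for Lss, 0.38 for Ebp and -0.14 for Ggps1. Against the sterol mean, the fatty acid genes had r from 0.59 (Elovl6) to 0.84 (Fads2), Srebf2 0.83, Insig1 0.82, Srebf1 0.70, Scap 0.32 and Insig2 0.24.

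**Figure D1:**
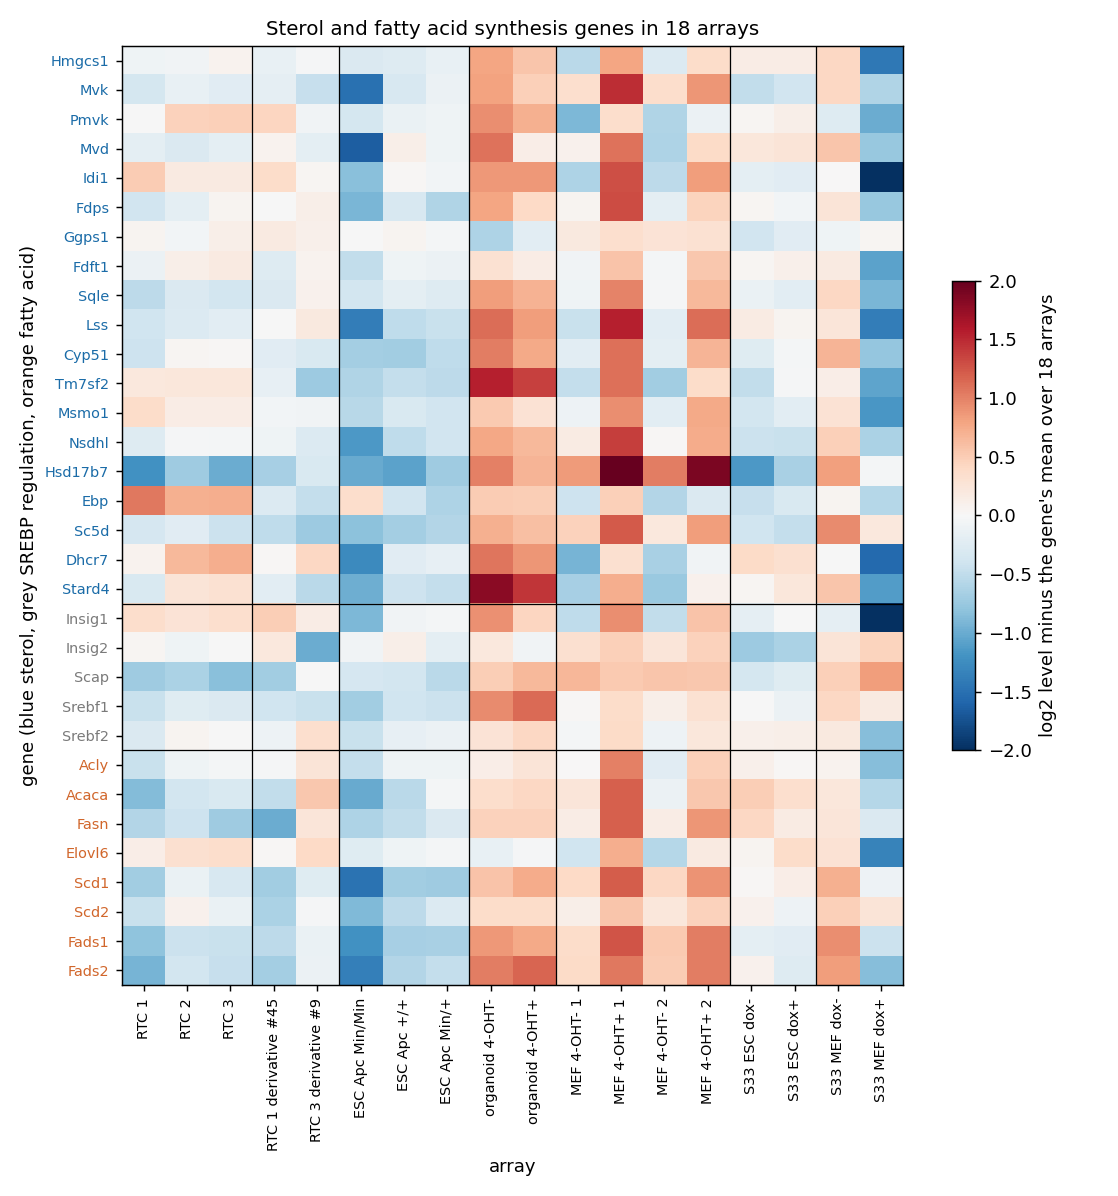
Log2 level of each measured member minus its mean over the 18 arrays (colour, from 2 below to 2 above), with genes in rows by branch and arrays in columns by cell type; black lines separate branches and groups. The highest levels (red) lie in organoids and 4-OHT-treated MEFs, the lowest (blue) in dox-treated S33 MEFs and Apc Min/Min ESCs, and Ebp is red in the 3 RTC arrays.

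In #45-derived MEFs, which compared cells before and after 4-OHT, 31 of the 32 members were higher in both treated arrays than in both untreated arrays; 17.9% of 11603 genes showed such a separation, and the choice of members used this contrast. The sterol branch had a median log2 difference of 0.98 and the fatty acid branch 0.76, against 0.00 over all genes. At least 2-fold higher on the mean were 8 members, of 14 genes in all that passed this fold (0.121%). The 2 arrays with no number in their titles (pair 1) and the 2 numbered (2) (pair 2) are given apart, since the number alone does not show that they were grown together.

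The largest sterol difference was in Lss, which closes squalene into the first sterol ring: 10.72 and 10.95 without 4-OHT and 12.71 and 12.28 with it, a 3.16-fold higher mean. Idi1 followed with 10.76 and 10.85 against 12.67 and 12.21, or 3.12-fold. For both genes the untreated arrays lay close together and well below the treated ones. Tm7sf2, a sterol reductase, was at 9.33 and 9.11 without and 10.90 and 10.17 with 4-OHT. Hsd17b7, a later ketoreductase, was at 11.60 and 11.78 against 13.00 and 12.63, and Stard4, the sterol carrier, at 8.98 and 8.90 against 10.38 and 9.73. Cyp51 (mean log2 difference 1.09) and Msmo1 (1.01), both demethylating enzymes, passed 2-fold as well. Below that fold came Hmgcs1 at 0.99, Mvd 0.99, Nsdhl 0.98, Fdps 0.94, Dhcr7 0.92, Sqle 0.88, Pmvk 0.87, Mvk 0.83, Sc5d 0.70, Fdft1 0.62 and Ebp 0.58. Ggps1 was the smallest of the branch at 0.09, with levels of 10.47 and 10.55 against 10.61 and 10.59.

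Among the regulators, Insig1, itself an SREBP target that closes the feedback, was at 11.63 and 11.65 without 4-OHT and 13.06 and 12.71 with it, 2.37-fold higher. The transcription factor genes differed less: Srebf2 by 0.37 and Srebf1 by 0.26 on the mean. Insig2 differed by 0.19. Scap was the only member not separated, at 11.63 and 11.52 without and 11.49 and 11.51 with 4-OHT.

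The fatty acid genes formed a narrow band. Elovl6, the elongase, was at 11.81 and 11.64 without 4-OHT and 12.95 and 12.40 with it, and Fasn, the synthase, at 12.23 and 12.24 against 13.28 and 12.97. Mean log2 differences were 0.95 for Elovl6, 0.89 for Fasn, 0.85 for Acly, 0.82 for Acaca, 0.70 for Fads1, 0.65 for Scd1, 0.59 for Fads2 and 0.33 for Scd2. None reached 2-fold on the mean. Scd1 and Scd2 are close paralogs and probes may cross-react.

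Differences were larger in pair 1 for 29 of the 32 members. Sterol medians were 1.24 in pair 1 and 0.67 in pair 2, and fatty acid medians 0.93 and 0.60. At least 2-fold higher were 17 members in pair 1 (background 0.318% of genes) and 4 in pair 2 (0.0979%). The untreated arrays differed little between pairs (sterol median -0.02), whereas the treated array of pair 1 lay 0.43 above that of pair 2. Over the 32 members the pairs' differences correlated at r = 0.89, against 0.52 over all genes, with 2 separate arrays behind each. The members were chosen on this contrast and genes are not independent, so the higher r is no check on the pairs' agreement. Other lists differed between the pairs as well: the 11 immune cell markers averaged 10.35 and 10.04 (without and with 4-OHT) in pair 1, with 9 above the array median in each, and 8.20 and 8.03 in pair 2, with 5 above it. The 13 fibroblast markers were all lower on the mean with 4-OHT, averaging 12.26 and 12.26 without and 11.86 and 11.84 with it. The 15 proliferation genes averaged 10.57 without and 10.23 with 4-OHT in pair 1, and 10.63 and 10.80 in pair 2. The part of these markers in the members' differences was not tested. No gene of 11603 (0%) passed limma's adjusted threshold in this contrast, and 519 (4.47%) had an unadjusted p under 0.05.

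**Figure D2:**
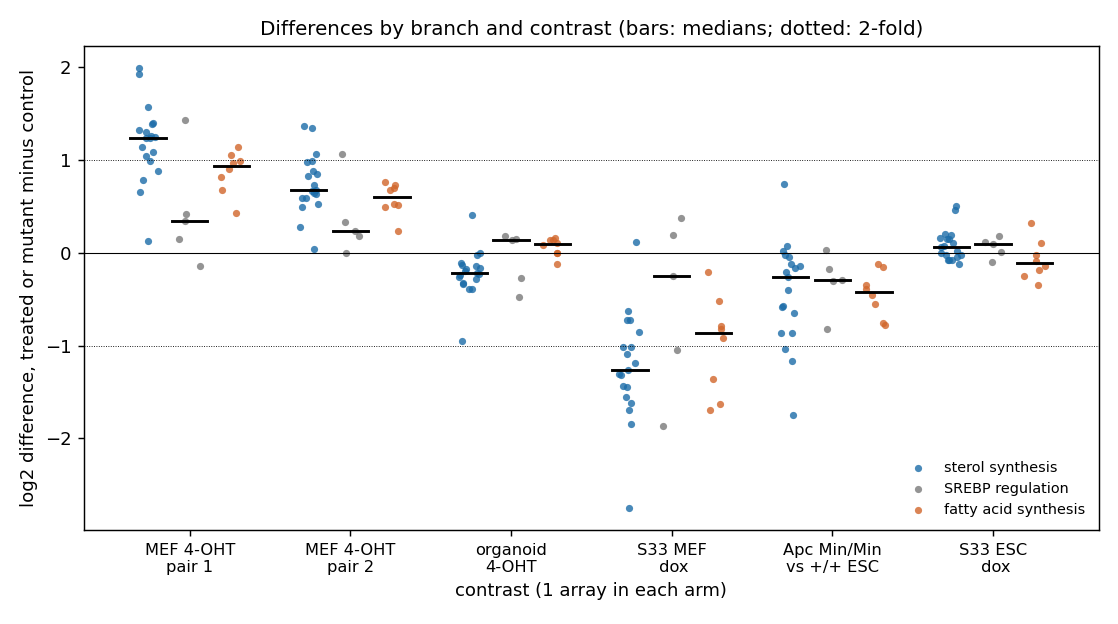
Log2 difference, treated or mutant minus control (vertical axis), of each member in 6 contrasts with 1 array in each arm; points are genes coloured by branch, bars are branch medians, dotted lines mark 2-fold. Points lie above 0 in both MEF pairs except Scap, below it in dox-treated S33 MEFs except Ggps1, Insig2 and Scap, and mostly below it in Apc Min/Min ESCs, and in organoids the sterol median (-0.22) lies below the fatty acid median (0.09), a gap that other scalings keep while both medians shift.

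In S33 MEFs the set was lower with dox. This contrast, like the remaining ones with 1 array in each arm, has no replicate check. Sterol genes had a median log2 difference of -1.26 with 18 of 19 lower, fatty acid genes -0.87 with 8 of 8 lower, against 0.04 over all genes and 44.9% of genes lower. At least 2-fold lower were 19 members, 14 of them sterol genes (background 3.71%), and no member was 2-fold higher; the choice of members used this contrast too. As deposited 19 members passed the fold, and 18 did with each array centred on its median.

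Idi1 was at 11.39 without dox and 8.64 with it, 6.73-fold lower, the lowest level of Idi1 in the series. Insig1 was at 11.95 and 10.08, 3.65-fold lower, and Hmgcs1, which makes the first committed unit of the pathway, at 12.21 and 10.36, 3.61-fold lower. Stard4 was at 10.21 and 8.53, and Lss at 11.40 and 9.78. The desaturase Fads2, at 12.89 and 11.20, and the elongase Elovl6, at 12.51 and 10.88, differed by amounts between those of Insig1 and Lss. Further sterol genes past 2-fold were Dhcr7 (-1.55), Msmo1 (-1.45), Cyp51 (-1.44), Mvd (-1.32), Sqle (-1.31), Fdft1 (-1.26), Tm7sf2 (-1.19), Nsdhl (-1.09), Fdps (-1.02) and Mvk (-1.02). Hsd17b7 (-0.85), Sc5d (-0.73), Pmvk (-0.73) and Ebp (-0.63) were lower by less.

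The fatty acid branch was uneven under dox. Fads2 (-1.69), Elovl6 (-1.63) and Fads1 (-1.36) passed 2-fold, while Acly (-0.92), Scd1 (-0.82), Acaca (-0.79), Fasn (-0.52) and Scd2 (-0.21) did not. Srebf2 was 2.08-fold lower, from 12.02 to 10.97, its lowest level in the series, and Srebf1 differed by -0.25. Ggps1 (0.12), Insig2 (0.19) and Scap (0.37) were not lower. Axin2, a target of beta-catenin, was at 8.6 without and 11.27 with dox, and 9 of 14 Wnt targets were at least 2-fold higher. Proliferation genes moved down in the same array pair: 15 of 15 were lower, 12 of them at least 2-fold, with a mean level of 10.98 without and 9.74 with dox. Their part in the members' differences was not tested.

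**Figure D3:**
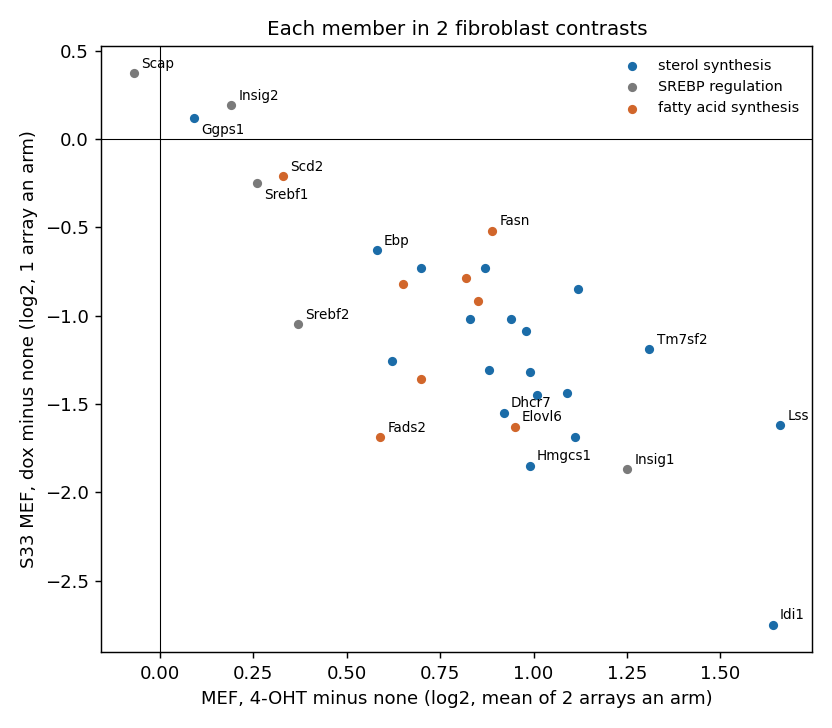
Each point is a member: horizontal, its mean log2 difference with 4-OHT in #45 MEFs (2 arrays an arm); vertical, its log2 difference with dox in S33 MEFs (1 array an arm). Idi1, Lss and Insig1 sit at the lower right, far from 0 on both axes, and Scap, Ggps1 and Insig2 near 0.

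The 2 fibroblast contrasts share no array, and members that differed most in 1 tended to differ most, in the opposite direction, in the other. Over the 32 members r was -0.80 between the 4-OHT and the dox differences, against 0.08 over 12004 genes, and 30 of 32 had opposite signs; genes are not independent, and both contrasts served the choice of members. Within branches r was -0.78 over 19 sterol genes and -0.35 over 8 fatty acid genes. Untreated S33 MEFs lay above untreated #45 MEFs for 28 of 32 members, against 50.4% of all genes. The median was 0.55 for sterol and 0.30 for fatty acid genes, and Stard4 alone passed 2-fold (1.27, background 1.19%). Both arms are control arrays of contrasts used to choose the members, which favours this direction, so all genes are not an independent background. Immune markers had a median of -2.86 between these arrays, with 9 of 11 at least 2-fold lower in S33 MEFs, and proliferation genes 0.37 with 12 of 15 higher. Xist (-2.64) and the Y chromosome genes Kdm5d (-2.35), Eif2s3y (-2.17) and Uty (-1.24) were lower in S33 MEFs as well. The part of these genes in the members' differences was not tested. Axin2 did not move with 4-OHT as it did with dox: 8.55 and 8.63 without and 8.53 and 8.81 with 4-OHT.

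In organoids the sterol branch lay below the fatty acid branch in the difference between the arrays with and without 4-OHT. The sign of either branch depended on the scaling. The sterol branch had a median log2 difference of -0.22 and the fatty acid branch 0.09, with 17 of 19 sterol genes lower against 49.7% of all genes; as deposited both medians were below 0 (-0.41 and -0.03, with all genes at -0.22), and with arrays centred on their median both were above it (0.22 and 0.59, with all genes at 0.40) and 1 of 19 sterol genes was lower. The gap between branches did not turn with the scaling: sterol minus fatty acid was -0.31, and -0.37 both as deposited and centred. With 1 array in each arm this gap was not tested, and the scalings do not measure the spread between arrays. Between the replicate arrays of the derivatives the medians were 0.08 for sterol and -0.51 for fatty acid genes, further apart than in organoids. In the other replicate pairs the branch medians lay closer together than in organoids. None of the 32 members was 2-fold apart (background 2.84%), and 1, Mvd (-1.12), was as deposited. The largest difference was in Mvd, which makes the isoprenoid unit from mevalonate, at 11.26 without and 10.31 with 4-OHT. Insig1 was at 13.05 and 12.57, Fdps at 12.62 and 12.22 and Stard4 at 11.46 and 11.08. Mvd and Insig1 were the only members also below 0 when centred, at -0.50 and -0.02. Ggps1 was higher, at 9.66 without and 10.07 with 4-OHT, and Idi1 was at 12.24 and 12.25. Fatty acid genes spanned -0.12 (Fads1) to 0.16 (Scd1), with Fasn at 12.55 in each array. The organoid arrays also differed in Xist, the RNA of the inactive X chromosome (10.52 without and 5.49 with 4-OHT, named after its values were seen). The Y chromosome genes Kdm5d (0.73), Eif2s3y (0.81) and Uty (1.1) were higher in the array with 4-OHT. The labels do not say if both arrays came from the same culture, so treatment and source cannot be told apart. The part of these genes in the members' differences was not tested. Organoid and MEF doses were in different units, and no dose comparison was made.

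In Apc Min/Min ESCs both branches lay below Apc +/+ ESCs, with 1 array in each arm. The fatty acid median was -0.43 with 8 of 8 genes lower and the sterol median -0.26 with 16 of 19 lower, against -0.06 over all genes and 55.4% of genes lower. The gap between the medians (0.16) was below the SD of a branch median between replicate arrays (0.19 for sterol, 0.29 for fatty acid genes). The branches are therefore not ranked. Mvd was at 10.28 in Apc +/+ and 8.52 in Apc Min/Min, Mvk at 10.23 and 9.06 and Dhcr7, the last enzyme of cholesterol synthesis, at 10.48 and 9.44. These 3, all of the sterol branch, were the members at least 2-fold lower (background 5.65%), also as deposited and when centred. Lss differed by -0.87, Idi1 by -0.86, Insig1 by -0.82, Scd1 by -0.78, Fads2 by -0.76 and Fads1 by -0.55. Hmgcs1 (-0.03), Cyp51 (0.02) and Hsd17b7 (0.07) lay near 0. Ebp went the other way, from 9.87 to 10.61. Apc Min/+ ESCs lay close to Apc +/+ ESCs, with medians of -0.03 for sterol and 0.08 for fatty acid genes and no member 2-fold apart (background 0.107%); the sterol median there was 0.29 as deposited and 0.03 when centred. Against the Apc Min/+ array, Apc Min/Min had medians of -0.31 and -0.58 with 3 members 2-fold lower (background 6.7%). As deposited these were -0.73, -0.92 and 10, where the median of all genes was -0.48. The share of all genes past the fold as deposited was not counted.

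Other lists moved in the Apc Min/Min array. Primitive endoderm markers had a median difference of 1.65, with 9 of 12 at least 2-fold higher, the immune markers 0.62 and Wnt targets 0.98, trophoblast markers had -0.68 with 9 of 12 lower (4 of them at least 2-fold, and 2 at least 2-fold higher), while pluripotency markers averaged 12.46 against 12.43. The growth protocol gives a trophoblast stem cell medium for Min/Min ESCs under that heading, and the labels do not settle whether this array was grown in it, so genotype, medium and cell makeup cannot be told apart here.

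S33 ESCs showed no shift of the set with dox. Medians were 0.06 for sterol and -0.12 for fatty acid genes, no member was 2-fold apart (background 3.16%), and the largest differences were Hsd17b7 (9.60 to 10.11) and Tm7sf2 (9.31 to 9.78). Axin2 was at 9.14 without and 9.35 with dox in these cells. The list of 14 Wnt targets mostly went the other way, with 10 lower and 4 higher and a median of -0.24 (48.3% of all genes were lower). At least 2-fold lower were 2 of them (background 2.18%), the largest being Lef1, at 10.37 without and 7.78 with dox. Idi1 was at 11.19 and 11.16, and Insig1 at 11.95 and 12.13.

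Stem cell lines allowed tests that the choice of members did not use. RTCs (3 arrays) were compared with ESCs (the wild-type and heterozygous lines and untreated S33 ESCs) by limma with Benjamini-Hochberg adjustment over 12080 genes, which asks how far RTCs resemble pluripotent cells. Of the 32 members 3 rose (background 3.21% higher, 6.69% in either direction) and none fell. All 3 are sterol genes of the post-lanosterol steps. The sterol median was 0.22 and the fatty acid median -0.11; with centred arrays they were 0.05 and -0.27, with 8 instead of 3 of 19 sterol genes lower and all genes at -0.14.

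Ebp, the isomerase that shifts the ring double bond late in the pathway, was at 11.32, 10.97 and 10.99 in RTCs and at 9.87, 9.64 and 9.80 in the ESCs. The groups did not overlap, and the log2 difference was 1.32 ± 0.15 (SE, 3 against 3 arrays), adjusted p = 0.00388. Ebp was called under every alternative tried for this comparison, with adjusted p from 0.00236 to 0.0247. Tm7sf2 was at 10.01, 10.02 and 10.03 in RTCs and 9.33, 9.28 and 9.31 in ESCs, a rise of 0.71 ± 0.11 (adjusted p = 0.0115). Msmo1 was at 12.38, 12.17 and 12.17 against 11.72, 11.63 and 11.65, a rise of 0.57 ± 0.12 (adjusted p = 0.0356). Both calls were lost under other settings. As deposited the adjusted p was 0.531 for Tm7sf2 and 0.699 for Msmo1, and with centred arrays 0.0605 and 0.161. Tm7sf2 also lost its call without RTC 2 (0.0608), RTC 3 (0.0731) or the Apc Min/+ array (0.0591), and with all 18 arrays in 1 fit (0.0755). Msmo1 lost it without RTC 1 (0.0562), RTC 2 (0.107), RTC 3 (0.122), the Apc +/+ array (0.0885) or the Apc Min/+ array (0.133). Over all genes 388 rose and 420 fell, against 213 and 145 as deposited and 272 and 595 when centred. Calls in either direction numbered 281 without RTC 2, 234 without RTC 3, 344 without Apc +/+ and 282 without Apc Min/+. Immune markers differed in the same comparison: 4 of the 8 tested rose (background 3.21%) and none fell. The 11 averaged 8.35, 9.25 and 9.32 in RTCs and 7.66 to 7.73 in the ESCs. Wnt targets rose in 3 of 13 tested and fell in none. Trophoblast markers fell in 2 of 11 tested (background 3.48%) and rose in 1. The 13 fibroblast markers, none called, averaged 8.87, 9.52 and 9.37 in RTCs. In ESCs they averaged 10.27 (Apc +/+), 10.32 (Apc Min/+) and 8.96 (untreated S33). The part of these lists in the members' differences was not tested.

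Against their derivatives the RTCs again differed in Ebp alone of the 32 members (191 of 11940 genes called, 1.6%). Ebp was at 9.98 in #45 and 9.79 in #9, below all 3 RTC arrays, and the difference was 1.20 ± 0.20 (SE, 3 against 2 arrays), adjusted p = 0.0350. The same RTC arrays serve both comparisons, so this is not a second measurement of the RTC level. The call was lost as deposited (adjusted p = 0.234) and without RTC 1 (0.0974), RTC 2 (0.0964), RTC 3 (0.134) or derivative #9 (0.0916). Calls over all genes numbered 33 without RTC 1, 56 without RTC 2, 37 without RTC 3, 116 without #9 and 383 without #45; without #45 Tm7sf2 and Insig2 were called too. Higher and lower calls over all genes were 100 and 91, and 58 and 23 as deposited.

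Ebp levels over the remaining arrays were 10.61 in Apc Min/Min ESCs, 9.95 in S33 ESCs with dox, 10.77 and 10.75 in organoids, 9.85 and 9.68 in untreated and 10.73 and 9.97 in 4-OHT-treated MEFs, and 10.32 and 9.69 in S33 MEFs without and with dox. Axin2 was at 10.57, 10.44 and 10.41 in RTCs and 10.90 in Apc Min/Min ESCs, and from 8.26 to 9.35 in the other stem cell arrays. It was at 11.3 and 11.81 in organoids, 8.55 and 8.63 in untreated and 8.53 and 8.81 in 4-OHT-treated MEFs. In S33 MEFs it was at 8.6 without and 11.27 with dox, so Axin2 was higher with dox there while Ebp was lower. The relation of Ebp to Axin2 was not tested. Ebp lies on the X chromosome between Tbc1d25 and Porcn in the GRCm38.p6 annotation; these neighbours, named after their values were seen, differed between RTCs and ESCs by 0.29 (adjusted p = 0.193) and 0.44 (adjusted p = 0.121), and Ftsj1 beyond Porcn rose by 0.58 (adjusted p = 0.0277), while Rbm3, beyond Tbc1d25, had -0.05 (adjusted p = 0.823).

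**Figure D4:**
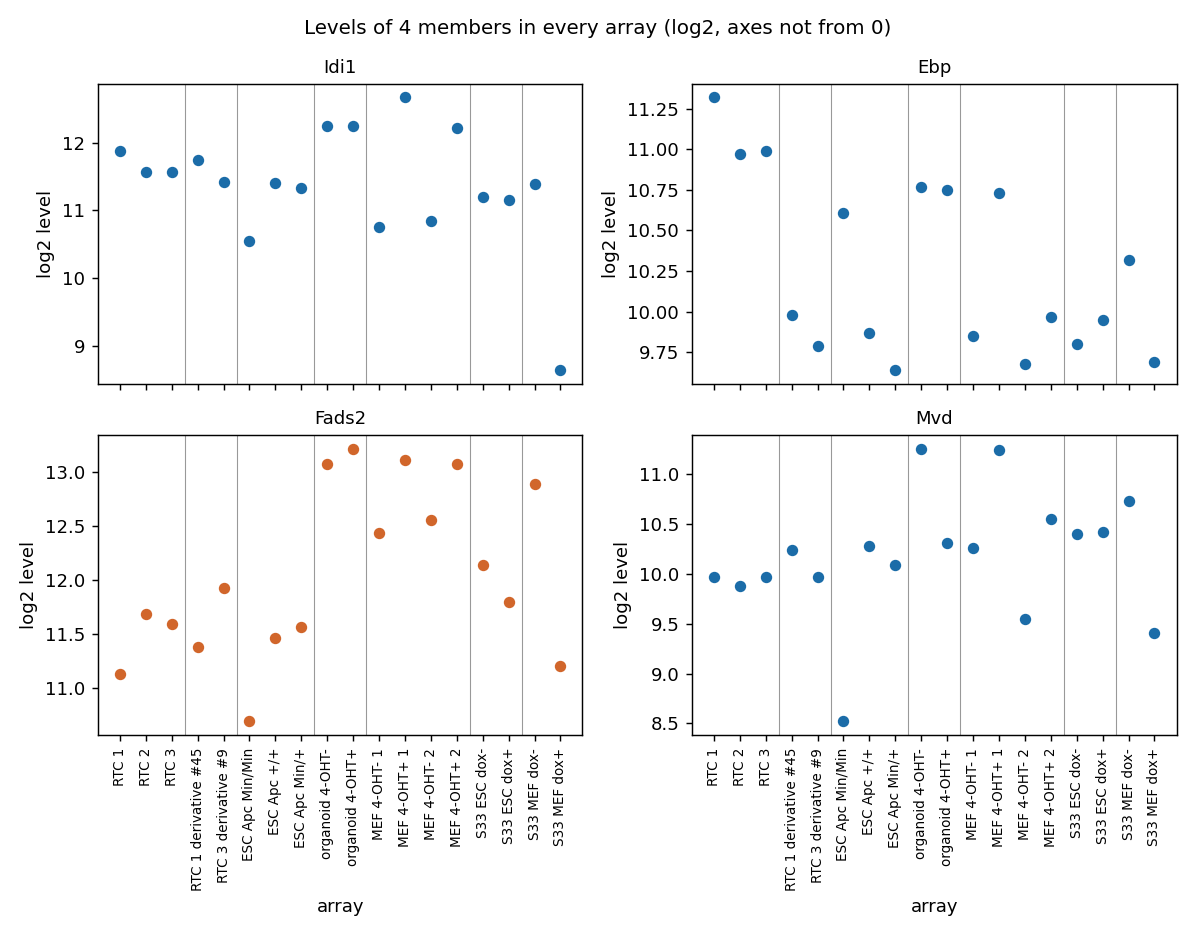
Log2 level of Idi1, Ebp, Fads2 and Mvd in each of the 18 arrays, in the array order of the heat map; vertical axes do not start at 0 and grey lines separate groups. Idi1 is lowest in dox-treated S33 MEFs (8.64), Ebp is highest in the 3 RTC arrays, Fads2 is higher in organoids and in MEFs other than the dox-treated S33 MEFs (11.20) than in the stem cell arrays, and Mvd is lowest in Apc Min/Min ESCs (8.52).

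Cell type shifted single genes of the set in both directions. Untreated #45 MEFs (2 arrays) were compared with derivatives #45 and #9 (2 arrays), where 12 of 32 members were called against 46.2% of 12572 genes, so the share of members is near the background. Higher in MEFs were 7 members (24.5% of all genes were called higher) and lower were 5 (21.7%). Hsd17b7 was at 11.60 and 11.78 in MEFs and 10.09 and 10.45 in the derivatives, 1.42 ± 0.22 higher (SE, adjusted p = 0.00679). Sc5d rose by 0.95 and Mvk by 0.66, and Dhcr7 (-1.01), Pmvk (-0.93) and Idi1 (-0.78) fell, so the sterol branch was split 3 to 3. In the fatty acid branch 3 of the 4 desaturase genes rose, Scd1 (0.87), Fads2 (0.84) and Fads1 (0.78), Scd2 (0.51, adjusted p = 0.169) was not called, and the elongase Elovl6 (-0.70) fell. Of the regulators, Scap rose by 0.96 and Insig1 fell by 0.82. As deposited, 3 of the 12 calls were made (Hsd17b7, Mvk and Sc5d), and without either MEF array 1 was made, Hsd17b7, with adjusted p = 0.0238 without MEF 1 and 0.0387 without MEF 2. Over all genes 3082 were higher and 2725 lower, and 2844 and 1649 as deposited; in either direction 3269 were called without MEF 1 and 3416 without MEF 2. Proliferation genes fell in the same comparison, 14 of 15, and their part in the members' differences was not tested.

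The untreated organoid array lay above the mean of the 2 derivatives for 30 of 32 members, against 48.3% of all genes. That array is the control of the organoid contrast used to choose the members, so all genes are not an independent background. The median difference was 0.94 for sterol and 0.77 for fatty acid genes. At least 2-fold higher were 12 members (background 15.7%), without a replicate. Stard4 was at 11.46 in the organoid and 9.43 and 9.11 in the derivatives, Tm7sf2 at 11.35 against 9.63 and 9.08, and Srebf1 at 10.91 against 9.56 and 9.51. Ggps1 (-0.76) and Elovl6 (-0.36) were the exceptions.

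Further SREBP targets outside the set are given for the same contrasts. In 4-OHT-treated MEFs 25 of 31 were higher on the mean, against 51.3% of all genes, with a median of 0.25. The acetyl-CoA synthetase Acss2 was at 9.39 and 9.49 without and 11.63 and 10.15 with 4-OHT, and the phosphatidate phosphatase Lpin1 at 10.04 and 10.36 against 11.44 and 11.03; these were the 2 past 2-fold. In dox-treated S33 MEFs 22 of 31 were lower, against 44.9% of all genes, with a median of -0.13. At least 2-fold lower were 4 (background 3.71%), the largest being the lipoprotein lipase Lpl (-1.99), the fatty acid binding protein Fabp5 (-1.70) and Mboat1 (-1.28). In Apc Min/Min ESCs the median was -0.04, with Mid1ip1 (-1.46) and Elovl7 (-1.27) the lowest and Me1 (1.22), Scd3 (1.13) and Lpl (1.10) the highest. Among organoids Scd3, a paralog of Scd1, was the only one past 2-fold (6.51 without and 8.55 with 4-OHT). Between RTCs and ESCs 3 of 28 tested rose (background 3.21%): Scd3 (0.94, adjusted p = 0.0192), Lpin1 (0.91, adjusted p = 0.00898) and Pnpla3 (0.48, adjusted p = 0.0461). Between MEFs and derivatives 7 of 28 rose and 4 fell, against 24.5% and 21.7% of all genes, so these counts are near or below the background. Fads3 (3.30) was the largest rise and Elovl7 (-1.69) the largest fall. None of 28 was called between RTCs and derivatives (background 1.6%).

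Genes that remove sterol or burn fat had medians near 0 in both fibroblast contrasts. Of 17 LXR targets and sterol export genes, 12 were lower in 4-OHT-treated MEFs with a median of -0.08, and the cholesterol exporter Abca1 was at 9.89 and 9.79 without and 9.22 and 8.31 with 4-OHT, the only one 2-fold lower. With dox in S33 MEFs their median was 0.09, the sterol exporter Abcg1 being at 8.80 without and 10.52 with dox and Cyp7b1, an oxysterol hydroxylase, at 9.53 and 7.08. For 29 genes of fatty acid oxidation and lipid storage the medians were 0.04 with 4-OHT in MEFs and 0.20 with dox in S33 MEFs, and none of them was 2-fold apart in either. Of the 9 adipocyte markers none was 2-fold apart in either contrast, with medians of -0.03 and 0.10, though 4 and 1 of them passed the filter on dim genes. In Apc Min/Min ESCs the oxysterol-making Ch25h (2.39) and Abca1 (1.21) were at least 2-fold higher. Between RTCs and derivatives Abcg1 fell by 1.13 (adjusted p = 0.0298) and Mogat2, of triglyceride synthesis, rose by 1.18 (adjusted p = 0.0350).

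The genes outside the set whose levels over the 18 arrays were most like the mean of the sterol branch were, by Pearson's r, Rdh11 (0.94), Pcyt2 (0.87), Acss2 (0.84) and Tmem97 (0.82), all 4 on the list of further SREBP targets, followed by H2-K2 (0.81), Lrp8 (0.79), Pdxk (0.79), Spata24 (0.79), Mmab (0.79) and Glyctk (0.79). Rdh11, a retinol dehydrogenase, differed by 1.18 and 0.54 with 4-OHT in MEF pairs 1 and 2, by -0.56 with dox in S33 MEFs, by -0.41 with 4-OHT in organoids and by -0.81 in Apc Min/Min ESCs. Pcyt2, of phosphatidylethanolamine synthesis, differed by 1.29, 0.69, -0.52, -0.38 and -0.62 in the same order.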

How the data were processed

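RNA from 18 mouse samples was hybridised to 18 Affymetrix arrays. The deposited values are linear intensities, 1 per probe set; the authors' background correction, probe summary and scaling are not given in these sources. The number of arrays limits the precision. Here the values were taken to log2 and quantile normalized over the 18 arrays, 3 probe sets without values were dropped, and 21789 probe sets with exactly 1 platform symbol were kept (1621 had several, 5443 none). The probe set with the highest mean stood for a gene (3 members had 2 probe sets), and 19856 of 19938 genes matched RefSeq (GRCm38.p6). A gene entered a comparison if above the array's median (percentile 50) in at least 1 array compared; all 32 members passed in every comparison.

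Replicated comparisons were tested two-sided, on the arrays compared only, by moderated linear models (limma 3.58.1, R 4.3.3, no intensity trend). Benjamini-Hochberg adjustment ran over every gene that entered, with calls at 0.05; the procedure was checked on simulated data. Contrasts with 1 array an arm used 2-fold. Members and lists were chosen with earlier results of these data known. All measured members are named where they pass the test or the fold; from each other list at most 3 genes in each direction; and the 10 genes most correlated with the sterol mean. Axin2, Apc, Xist, the Y chromosome genes and the neighbours of Ebp were named after their values were seen.

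RTC 1 with #45 and RTC 3 with #9 are paired by line of origin, per their titles; their deviations correlated at r = 0.071 over 13937 genes. With that pairing as a replicate block Ebp remained called between RTCs and derivatives (1.27, adjusted p = 0.0280), as the only member, of 232 genes called. Alternatives were the values as deposited, arrays centred on their median, the mean of probe sets, no filter, 1 fit of all arrays, an intensity trend, replicate blocks and leaving out each replicate.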

Additional observations from a re-analysis of the deposited data

Results flagged for a closer look

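Members that moved at least 0.3 one way in every array pair of one cell type and the opposite way in the other are listed here; the differences between cell types were not tested. With 4-OHT, in the order organoids, MEF pair 1 and MEF pair 2, the log2 differences were -0.34, 1.14 and 0.52 for Mvk, -0.95, 0.99 and 0.99 for Mvd, and -0.39, 1.24 and 0.64 for Fdps, 3 enzymes of the mevalonate and isoprenoid steps. In that order Hsd17b7 had -0.33, 1.4 and 0.85, Stard4 -0.39, 1.39 and 0.83, and the feedback regulator Insig1 -0.48, 1.43 and 1.06. The organoid values of Mvk, Fdps, Hsd17b7 and Stard4 turned positive with arrays centred on their median (0.11, 0.04, 0.11 and 0.06), while Mvd and Insig1 stayed at -0.50 and -0.02. With dox, S33 MEFs and S33 ESCs differed by -1.19 and 0.46 for Tm7sf2, by -0.85 and 0.5 for Hsd17b7, and by -1.63 and 0.32 for the elongase Elovl6. No group holds 4 or more arrays, so no group could be searched for an outlying array.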

How the results depend on the processing

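Of the members called, RTCs against ESCs kept 1 as deposited and 1 with arrays centred on their median instead of 3, and 1 to 3 when each array was left out; RTCs against derivatives had 0 as deposited and 0 to 3 when each was left out instead of 1; MEFs against derivatives had 3 as deposited and 1 to 13 when each was left out instead of 12. Left-out arrays moved the count of all genes called to 234 to 1170 from 808, 33 to 383 from 191, and 3269 to 6757 from 5807. As deposited those counts were 358, 81 and 4493, and 1 fit of all 18 arrays called 561 between RTCs and derivatives. A lone array left in an arm is assumed to vary like the others in the fit. In 4-OHT-treated MEFs the sterol median ran from 0.70 to 1.19 and the fatty acid median from 0.58 to 0.94 when an array was left out; without the treated array of pair 1 the sterol median was the lower of these. The organoid sterol median turned from -0.22 to 0.22 and the fatty acid median from 0.09 to 0.59 with centred arrays, where the median of all genes is 0.40. Scaling also moved the median of all genes to -0.22 (organoids, as deposited), 0.32 (Apc Min/+ against +/+, as deposited), 0.21 (MEFs against derivatives, as deposited), -0.48 and -0.20 (Apc Min/Min against Min/+, as deposited and centred), -0.15 and -0.14 (Apc Min/Min against +/+, likewise), and -0.14 and -0.12 (RTCs against ESCs and derivatives, centred). MEF arrays share only a number, and with that number as a replicate block 148 genes (1.28%) were called with 4-OHT against 0 without it; the members were chosen on this contrast and their calls are not counted. The branch medians were 0.98 and 0.76 in both fits. That block was added after seeing the data. The untreated and treated arrays' differences between numbers correlated at r = 0.83. Among single genes, 110 values kept their side of the threshold and direction, 58 lost the call, and 0 reversed. Depth does not apply to arrays; all members lay above their arrays' medians in at least 1 array of each comparison.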

Other observations

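Replicate arrays set the scale for the members' differences. Between RTC lines no member was 2-fold apart, the largest being Dhcr7 between RTC 1 and RTC 3 (0.65), and RTC 1 lay below RTC 2 and RTC 3 in the fatty acid branch (medians -0.43 and -0.37). Between the untreated MEF arrays the largest difference was in Mvd (0.71), and between the treated ones in Fdps (0.86). Derivatives #45 and #9 were 2-fold apart in 3 members, most in Fasn (11.10 in #45 and 12.33 in #9), with Insig2 at 10.40 and 9.21 and Acaca at 10.00 and 11.02. The SD of a branch median between replicate arrays was 0.19 for sterol and 0.29 for fatty acid genes (5 residual degrees of freedom).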
